A study of Mus musculus with 8 samples.

Results

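The fatty acid desaturases and elongases put double bonds into fatty acyl-CoA and lengthen it in the endoplasmic reticulum. The 10 genes listed were the desaturases Scd1, Scd2, Fads1, Fads2 and Fads3 and the elongases Elovl1, Elovl3, Elovl5, Elovl6 and Elovl7. They were chosen by function and taken from the array through probe sets annotated to 1 gene symbol, the brightest on average being kept where a gene had several. Of the 10 genes, 9 had such a probe set among the 22180 genes named in this way, and each of the 9 had only 1. The only Scd2 probe set also carries the symbol of a microRNA, Mir5114, so no value is given for Scd2. Elovl3 and Elovl7 lay below the cut on dim genes, a mean log2 value of 5.82, which left 7 of these genes among the 14787 tested.

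Total RNA of the left epididymal fat pad, the white depot beside the epididymis, was measured in 8 male C57BL/6 mice, 1 array per mouse. In the GC+ group 4 mice received prednisolone, a synthetic glucocorticoid, daily at 40 mg per kg per square metre in sweet potato puree, from 6 weeks of age for 4 weeks. In the GC- group 4 mice received the puree alone. All 8 mice were weaned at 3 weeks of age onto a high-fat diet, 45% of its energy being fat and n-6 acids predominating, were housed singly and were killed at 10 weeks of age. There was no group on another diet. Values are log2 expression from robust multiarray averaging, so a difference of 1 is a doubling, and values of different probe sets are not set against each other.

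Saturated fatty acids such as palmitate are lengthened to stearate by Elovl6 and desaturated by Scd enzymes to palmitoleate and oleate, the main monounsaturated acids of stored triglyceride. Linoleic acid, the dietary n-6 acid, is converted to arachidonic acid by Fads2, then Elovl5, then Fads1. Mature adipocytes are rich in the first route, and the transcripts of both routes respond to SREBP-1c, the liver X receptors and dietary polyunsaturated fat.

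The fat pads carried unequal amounts of RNA from the epididymis, the sperm-storing duct next to this depot. Gpx5, an epididymal glutathione peroxidase, read 11.27, 13.81, 4.57 and 4.76 in GC+ mice 1 to 4, against 13.78, 4.19, 8.69 and 13.60 in GC- mice 1 to 4. Both treatments therefore held arrays at the low and at the high end, with 2 arrays in between. The mean of 17 other epididymis markers read 8.29, 11.41, 5.95 and 5.92 in GC+ mice 1 to 4, against 10.92, 5.71, 6.71 and 9.77 in GC- mice 1 to 4. Adipocyte identity was present on every array: the mean of 11 tested adipocyte markers, among them Adipoq, Plin1 and Lipe, ran from 12.35 to 12.60 in GC+ mice and from 12.10 to 12.60 in GC- mice. In a bulk sample, fewer cells of a type and less RNA per cell cannot be told apart. Array medians lay between 6.09 and 6.13, and no 2 arrays were identical.

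With prednisolone, none of the 7 tested members changed past the threshold. In limma, fitted across all 14787 tested genes with Benjamini-Hochberg adjustment, 0 members had an adjusted p under 0.05, as did 0.0% of all genes, and the lowest adjusted p of any gene was 0.713. At an unadjusted p under 0.05 there was 1 member of 7, Fads3, against 5.69% of tested genes (842). Of the 7, 3 had a positive difference, against 54.6% of tested genes. The median difference was 0.00 over the 7 members and 0.02 over all tested genes. The groups did not overlap in 0 of the 9 members, against 3.2% of tested genes.

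The members varied between mice to very different degrees. Fads2 spanned 3.23 log2 units over the 8 arrays, a 9.4-fold range, and Elovl6 spanned 2.49, a 5.63-fold range. Elovl5 spanned 0.36. Scd1 spanned 0.15, but near the top of the array's range, where compressed signals can hide variation. Fads2 and Elovl6, shown because they varied most and in a different order of mice, are given here by the 250 bases upstream of their RefSeq start (GRCm38.p6), 5′ to 3′ on the strand of the gene, with capitals for a GC box (GGGCGG, either strand).
Fads2 (chr19:10101504-10101753, minus strand): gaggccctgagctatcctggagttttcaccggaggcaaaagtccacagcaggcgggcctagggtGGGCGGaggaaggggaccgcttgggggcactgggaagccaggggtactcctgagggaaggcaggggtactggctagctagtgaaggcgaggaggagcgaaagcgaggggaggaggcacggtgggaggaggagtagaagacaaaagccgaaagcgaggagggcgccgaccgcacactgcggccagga
Elovl6 (chr3:129532136-129532385, plus strand): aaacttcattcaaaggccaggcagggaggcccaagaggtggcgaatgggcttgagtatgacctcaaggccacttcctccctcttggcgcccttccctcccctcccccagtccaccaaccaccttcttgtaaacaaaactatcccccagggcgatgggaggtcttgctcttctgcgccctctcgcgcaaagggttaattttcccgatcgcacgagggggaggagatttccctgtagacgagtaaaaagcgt
The Fads2 window held 1 GC box, at position -186 from the start, and the Elovl6 window held 0. Of all 32817 windows of this length, 32.7% held 1 or more. Matches to a CCAAT box (CCAAT, in 33.8% of windows), a sterol regulatory element (TCACNCCAC, in 1.05%) or a palindromic glucocorticoid response element (in 0.00914%), each searched on both strands, numbered 0 in both windows. The GC content was 64.8% for Fads2 and 56.4% for Elovl6, with a median of 52.4% over all windows.

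**Figure D1:**
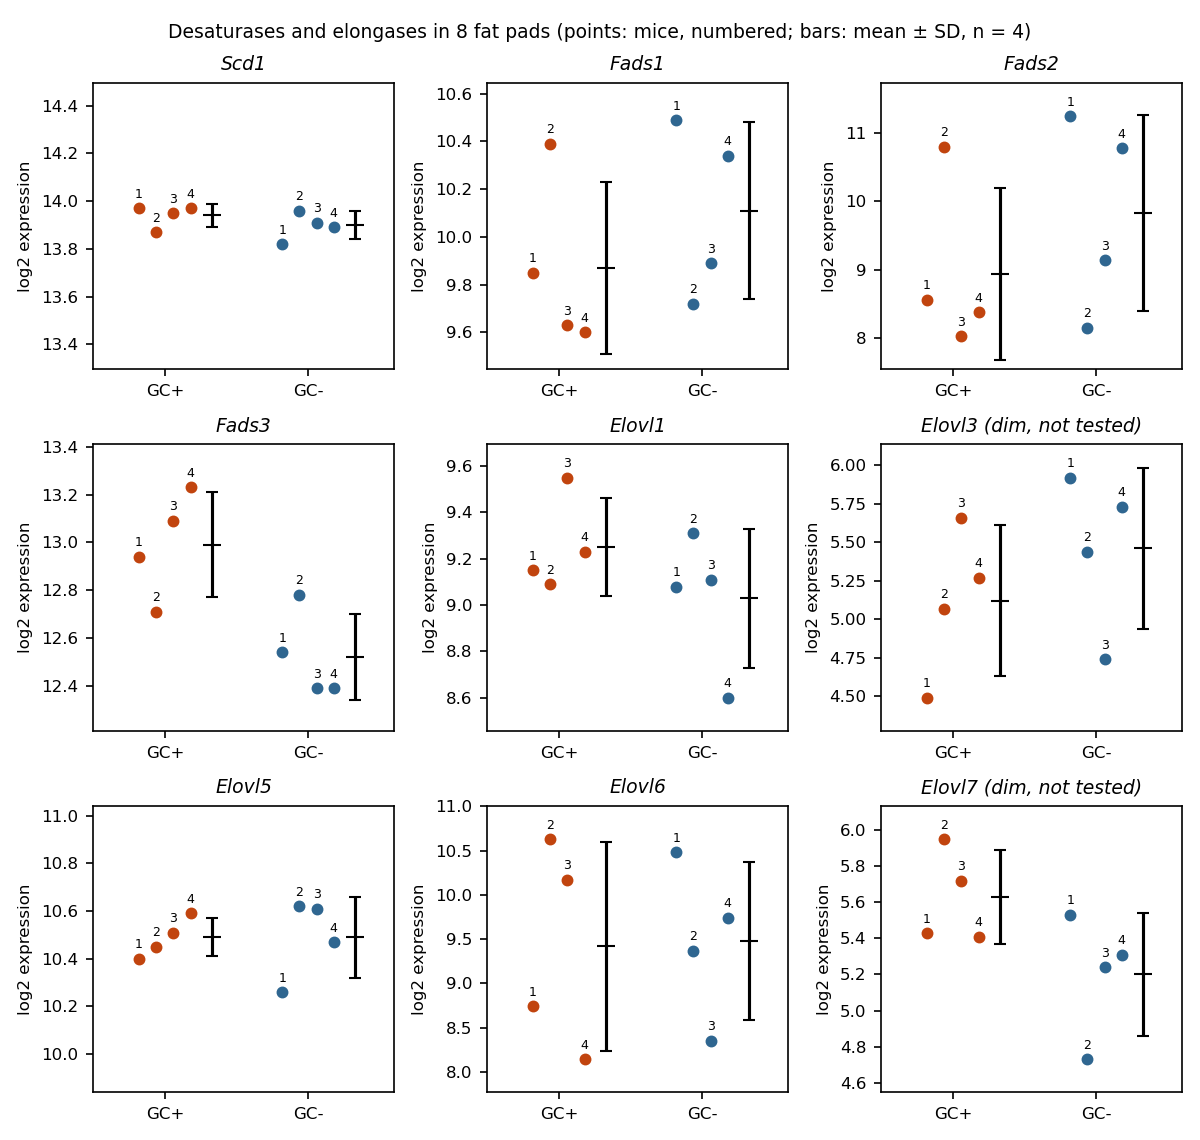
Log2 expression (vertical axes, each with its own range) of the 9 members in GC+ mice on the left and GC- mice on the right of each panel. Points are mice with their replicate numbers and bars are the mean ± SD (n = 4 per group); Fads1 and Fads2 are high in GC+ mouse 2 and GC- mice 1 and 4, and Fads3 is above every GC- mouse in 3 of 4 GC+ mice.

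Fads2, the desaturase that carries out the first and limiting step from linoleic acid, read 8.56, 10.80, 8.02 and 8.37 in GC+ mice 1 to 4, against 11.25, 8.15, 9.14 and 10.78 in GC- mice 1 to 4. GC+ mouse 2 and GC- mice 1 and 4, which were also the 3 arrays highest in Gpx5, stood above the other 5, and the treatment groups overlapped. The difference between treatments was -0.89 ± 0.82 (± the standard error from limma, 4 mice a group, adjusted p = 0.811), with a 95% interval from -2.76 to 0.98. It was -1.45 without GC- mouse 2, -1.51 without GC+ mouse 2, -0.58 without GC+ mouse 3 or GC- mouse 4 and -0.42 without GC- mouse 1. It was -0.50 ± 0.37 with Gpx5 as a covariate and -0.33 ± 0.31 without the 3 arrays of highest Gpx5, with limma adjusted p-values of 0.818 and 0.957.

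Fads1, which makes arachidonic acid from dihomo-gamma-linolenic acid, read 9.85, 10.39, 9.63 and 9.60 in GC+ mice 1 to 4, against 10.49, 9.72, 9.89 and 10.34 in GC- mice 1 to 4. The same 3 mice were highest, over a range of 0.89, and the groups overlapped. The difference was -0.24 ± 0.23 (limma adjusted p = 0.813). It was -0.42 without GC+ mouse 2 and -0.12 without GC- mouse 1, and -0.14 ± 0.10 with Gpx5 as a covariate.

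Among the members, Fads1 and Fads2 had the highest positive correlations with Gpx5, though no member had a called slope on Gpx5. Elovl1 ran the other way by rank (Spearman rho = -0.86, exact permutation p = 0.0107). Over the 8 arrays, the correlation with Gpx5 was r = 0.92 for Fads1 (Pearson, two-sided exact permutation p = 0.00528) and rho = 0.86 (Spearman, exact permutation p = 0.0107). For Fads2 it was r = 0.90 (exact permutation p = 0.00751) and rho = 0.93 (exact permutation p = 0.00223). Among 14786 tested genes Fads1 ranked 24th and Fads2 64th by r. After adjustment over those genes, the exact permutation p for r was 0.257 for both, where 0.257 was also the lowest value of any gene. Without GC- mouse 2 and GC+ mouse 3, the 2 arrays farthest from the median of Gpx5, r was 0.92 for Fads1 and 0.84 for Fads2. Both arrays left out were at the low end of Gpx5, at 4.19 and 4.57. GC+ mouse 2 and GC- mice 1 and 4, the highest in Gpx5, stayed in.

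In a linear model with treatment as a term, the slope on Gpx5, in log2 units per log2 unit of Gpx5, was 0.074 ± 0.013 for Fads1 and 0.266 ± 0.046 for Fads2. Both had a limma adjusted p of 0.157 over 14786 genes, and 0.0% of genes passed with Gpx5 as the measure, though 16.5% (2435) had an unadjusted p under 0.05. These were 2 of 7 members with a positive slope at an unadjusted p under 0.001, against 0.44% of tested genes. That cut lay not far above their own unadjusted p-values in limma, 0.000483 for Fads1 and 0.000518 for Fads2. Negative slopes were not counted at it, so the contrast is a description only. At an unadjusted p under 0.05, 2 members had a positive slope and 2 a negative one, against 8.07% and 8.4% of tested genes. Of the 7, 3 had a slope above 0, against 40.2%. The slopes were alike in sign within each treatment. For Fads2 the slope was 0.224 ± 0.064 in GC+ mice and 0.310 ± 0.065 in GC- mice (difference -0.086, limma adjusted p = 0.98). For Fads1 it was 0.071 ± 0.019 in GC+ mice and 0.077 ± 0.019 in GC- mice (limma adjusted p of the difference 0.991). A difference between the 2 slopes had an unadjusted p under 0.05 in 0 of 7 members and in 5.3% of tested genes (784), and limma called 0 genes. Without GC+ mouse 1, whose Gpx5 was intermediate, the slopes were 0.080 for Fads1 and 0.299 for Fads2, with limma adjusted p-values of 0.0463 and 0.0193. Neither was called without any 1 of the other 7 mice, where the adjusted p ran from 0.145 to 0.501 for Fads1 and from 0.147 to 0.501 for Fads2, highest without GC- mouse 2.

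Fads1 and Fads2 did pass the threshold when the mean of the 17 other epididymis markers took the place of Gpx5, again with treatment in the model. The slope was 0.143 ± 0.015 for Fads1 (limma adjusted p = 0.00685) and 0.517 ± 0.051 for Fads2 (limma adjusted p = 0.00672), so that each unit of the marker mean went with a 1.43-fold higher Fads2. These 2 of 7 members compare with 2.14% of genes called in this direction, and 0 members with 0.25% in the other. The other 5 members had limma adjusted p-values from 0.221 (Fads3) to 0.479 (Scd1), with a positive slope of 0.263 ± 0.115 for Elovl6. With each mouse left out in turn, the slope stayed between 0.140 and 0.147 for Fads1 and between 0.477 and 0.552 for Fads2. The limma adjusted p ran from 0.00668 to 0.0467 for Fads1 and from 0.00156 to 0.0458 for Fads2. Epithelial markers moved with the same arrays. The mean of 7, among them Epcam and Cdh1, ran from 6.64 to 8.48 in GC+ mice and from 6.50 to 9.38 in GC- mice, and all 7 had a positive slope on Gpx5. Whether epididymal or other epithelial RNA was the source of the Fads1 and Fads2 signal was not tested.

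**Figure D2:**
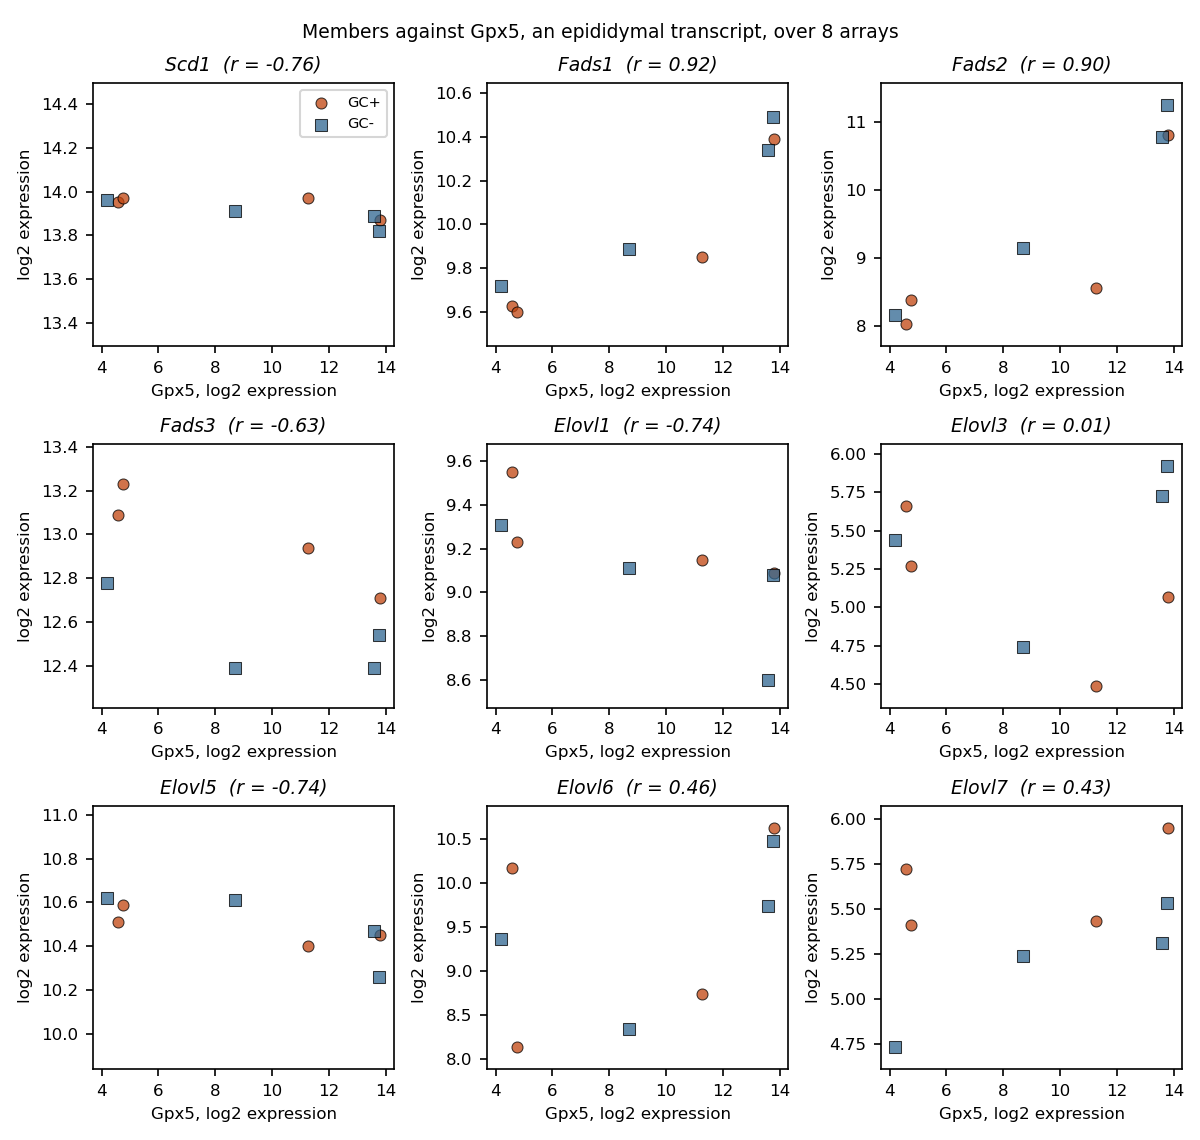
Log2 expression of each member (vertical axes, each with its own range) against log2 expression of Gpx5 (horizontal axes), 1 point per array, GC+ as circles and GC- as squares. Fads1 and Fads2 climb to the 3 arrays at the right end of the Gpx5 axis (r = 0.92 and 0.90), Scd1, Elovl5 and Elovl1 drift down, and Elovl6 is scattered (r = 0.46).

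Fads3, a desaturase that acts on sphingoid bases of ceramides, was the member with the clearest separation by treatment. Its difference was opposite in sign to those of Fads1 and Fads2. None of these differences was called, and no contrast between the genes was tested. It read 12.94, 12.71, 13.09 and 13.23 in GC+ mice 1 to 4, against 12.54, 12.78, 12.39 and 12.39 in GC- mice 1 to 4. GC+ mice 1, 3 and 4 lay above every GC- mouse, and only GC- mouse 2 lay above GC+ mouse 2. The group means were 12.99 ± 0.22 in GC+ mice and 12.52 ± 0.18 in GC- mice (SD, n = 4 each). The difference was 0.47 ± 0.13, a 1.38-fold higher level in GC+ mice, with an unadjusted p of 0.00785 and a limma adjusted p of 0.768. At an unadjusted p under 0.01 there were 0.812% of tested genes, and Fads3 was 91st by p.

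The Fads3 difference was also fitted on fewer arrays and with Gpx5 as a covariate. The mean of the 17 other epididymis markers was not used as a covariate of the difference. It was 0.50 ± 0.16 without the 3 arrays of highest Gpx5 and 0.42 ± 0.10 with Gpx5 as a covariate, with limma adjusted p-values of 0.957 and 0.758. In the covariate fit Fads3 was the only member higher at an unadjusted p under 0.05, against 3.47% of tested genes, and 0 genes were called with 6.0% (887) under 0.05. Leaving out 1 mouse at a time gave 0.39 to 0.56. The slope on Gpx5 was -0.036 ± 0.012 (limma adjusted p = 0.217), with r = -0.63 (exact permutation p = 0.107) and rho = -0.50 (exact permutation p = 0.209) over the 8 arrays. All 11 adipocyte markers also had negative slopes, from -0.053 to -0.006, and the slope of Fads3 lay inside that range. It also lay inside the ranges of 10 macrophage markers (-0.093 to -0.035) and 5 endothelial markers (-0.046 to -0.029). Over all tested genes, 40.2% had a slope above 0. By treatment, 9 of the 11 adipocyte markers and 10 of 10 macrophage markers had positive differences, with medians of 0.13 and 0.26, against 54.6% of all tested genes. So did 4 of 4 mesothelial markers (median 0.08) and 3 of 4 tested brown and beige adipocyte markers (median 0.30). Differences were negative for 7 of 7 epithelial markers (median -0.67), 8 of 9 spermatid and testis markers (-0.45), 4 of 5 endothelial markers (-0.12), 10 of 18 epididymis markers (-0.38), and 3 of 6 progenitor and fibroblast markers (-0.05). The mean macrophage level ran from 10.05 to 10.68 in GC+ mice and from 9.53 to 10.97 in GC- mice, and the part of any of these cell types in the Fads3 difference was not tested. In RefSeq GRCm38.p6 Fads1, Fads2 and Fads3 all lie on chromosome 19, as do the listed genes Scd1, Scd2 and Elovl3.

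Scd1, the main desaturase of saturated acyl-CoA in adipocytes, read 13.97, 13.87, 13.95 and 13.97 in GC+ mice 1 to 4, against 13.82, 13.96, 13.91 and 13.89 in GC- mice 1 to 4. The groups overlapped, and every value lay near the top of the array's range, where signals are compressed. The difference was 0.04 ± 0.07 (limma adjusted p = 0.876), with a 95% interval from -0.11 to 0.20. Over the arrays r with Gpx5 was -0.76 (exact permutation p = 0.0326, adjusted over all genes 0.268) and rho was -0.71 (exact permutation p = 0.0576). The slope was -0.009 ± 0.008 (limma adjusted p = 0.584), and GC- mouse 1, GC+ mouse 2 and GC- mouse 4, the arrays highest in Gpx5, held the 3 lowest Scd1 values.

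Among the elongases, Elovl6, which takes palmitate to stearate, had the widest spread. It read 8.74, 10.63, 10.17 and 8.14 in GC+ mice 1 to 4, against 10.48, 9.37, 8.35 and 9.74 in GC- mice 1 to 4. High and low mice occurred in both groups, and GC+ mouse 3 was among the highest with Gpx5 at its low end. The difference was -0.06 ± 0.63 (limma adjusted p = 0.981), with a 95% interval from -1.50 to 1.38, and its sign changed without GC+ mouse 1 or 4 or GC- mouse 1 or 4. It was 0.36 without GC+ mouse 4 and 0.27 without GC- mouse 1. The slope on Gpx5 was 0.103 ± 0.074 (limma adjusted p = 0.507), with r = 0.46 (exact permutation p = 0.237) and rho = 0.55 (exact permutation p = 0.171). Without GC- mouse 2 and GC+ mouse 3, the arrays farthest from the median of Gpx5, r was 0.88 over the other 6. The slope was 0.162 without GC+ mouse 3, 0.061 without GC+ mouse 4 and 0.052 without GC+ mouse 2 (limma adjusted p = 0.85), so its size depends on single mice in both directions.

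Elovl5, the elongase of polyunsaturated acids between the Fads2 and Fads1 steps, was nearly flat. It read 10.40, 10.45, 10.51 and 10.59 in GC+ mice 1 to 4, against 10.26, 10.62, 10.61 and 10.47 in GC- mice 1 to 4. The groups overlapped, with means of 10.49 in both. The difference was 0.00 ± 0.10 (limma adjusted p = 0.998), with a 95% interval from -0.22 to 0.22. Unlike Fads1 and Fads2 it had a negative slope on Gpx5, -0.021 ± 0.010 (limma adjusted p = 0.342), with r = -0.74 (exact permutation p = 0.0351) and rho = -0.79 (exact permutation p = 0.0279).

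Elovl1, which lengthens saturated and monounsaturated acids to very long chains, read 9.15, 9.09, 9.55 and 9.23 in GC+ mice 1 to 4, against 9.08, 9.31, 9.11 and 8.60 in GC- mice 1 to 4. GC- mouse 4 was lowest and GC+ mouse 3 highest, and the groups overlapped. The difference was 0.23 ± 0.17 (limma adjusted p = 0.779), and it was 0.13 without GC+ mouse 3 and 0.08 without GC- mouse 4. The slope on Gpx5 was -0.042 ± 0.016 (limma adjusted p = 0.258), with r = -0.74 (exact permutation p = 0.00598) and rho = -0.86 (exact permutation p = 0.0107). Without GC- mouse 2 and GC+ mouse 3, r was -0.54. Counted at an unadjusted p under 0.05, 2 of the 7 tested members had a positive slope on Gpx5 and 2 a negative one, against 8.07% and 8.4% of tested genes.

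The 2 dim elongases fell below the cut on mean level and were not tested with the others. Elovl3, an elongase known from brown fat and skin, read 4.49, 5.07, 5.66 and 5.27 in GC+ mice 1 to 4, against 5.92, 5.44, 4.74 and 5.73 in GC- mice 1 to 4. The groups overlapped, and r with Gpx5 was 0.01 (exact permutation p = 0.984) with rho = 0.05 (exact permutation p = 0.935). Ucp1, the uncoupling protein that defines brown adipocytes, was also dim, at 5.61 to 6.74 in GC+ mice and 5.22 to 5.59 in GC- mice. Its groups did not overlap, but GC+ mouse 2 at 5.61 lay only just above GC- mouse 4 at 5.59. Groups did not overlap in 3.2% of tested genes, and Ucp1 was not among the tested genes. The Ucp1 difference of 0.63 was opposite in sign to that of Elovl3. GC+ mouse 3 read 6.74 for Ucp1, and the other GC+ mice read 5.61 to 6.03. Of 4 tested brown and beige adipocyte markers, 3 had a positive difference. Elovl7, which acts on saturated long chains, read 5.43, 5.95, 5.72 and 5.41 in GC+ mice 1 to 4, against 5.53, 4.73, 5.24 and 5.31 in GC- mice 1 to 4. GC+ mice 2 and 3 lay above every GC- mouse and GC- mice 2, 3 and 4 below every GC+ mouse, so only GC- mouse 1 overlapped. Its r with Gpx5 was 0.43 (exact permutation p = 0.31) with rho = 0.52 (exact permutation p = 0.197). With the filter on dim genes removed, the Elovl7 difference was 0.43 ± 0.19 (limma adjusted p = 0.791) and the Elovl3 difference -0.33 ± 0.30 (limma adjusted p = 0.828). In that fit the slope on Gpx5 was 0.047 ± 0.018 for Elovl7 (limma unadjusted p = 0.0361, adjusted p = 0.327) and -0.007 ± 0.040 for Elovl3 (adjusted p = 0.953).

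**Figure D3:**
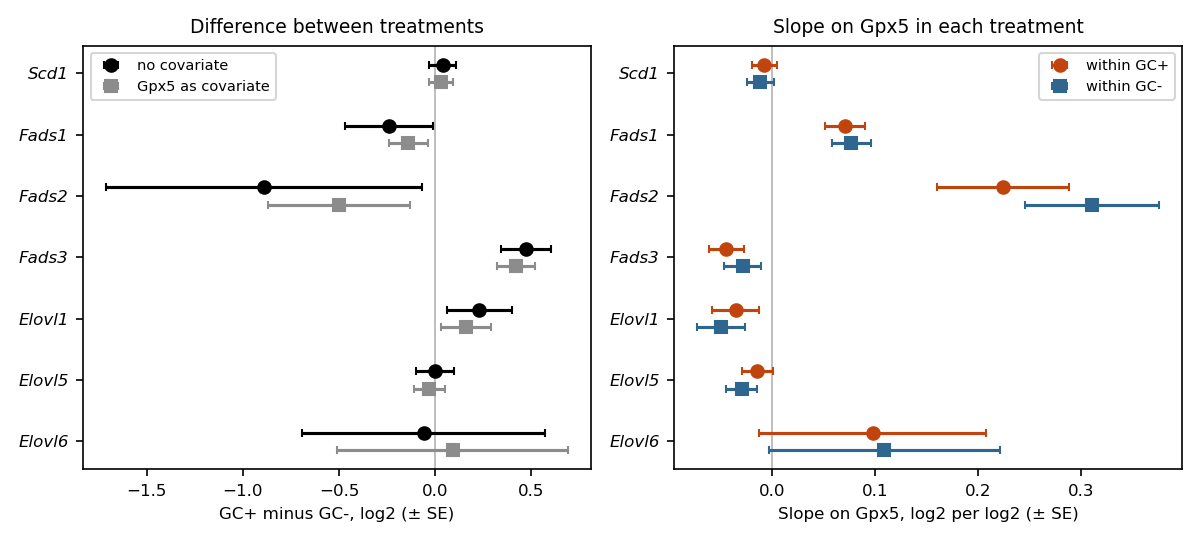
Left, the difference GC+ minus GC- in log2 units (± standard error) of the 7 tested members, without a covariate (black circles) and with Gpx5 as a covariate (grey squares). Right, the slope on Gpx5 in log2 per log2 unit (± standard error) within GC+ mice (circles) and within GC- mice (squares); only Fads1, Fads2 and Elovl6 have positive slopes in both treatments.

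The genes whose pattern over the 8 arrays was most like each member, by Pearson r over 8 arrays among all tested genes, are a description only, since each is the highest of many. For Fads2 it was Erbb3 (r = 0.987), a receptor of the epidermal growth factor family, which spanned 5.95 to 9.28. For Fads1 it was Gstt3 (r = 0.992), a glutathione transferase spanning 6.40 to 8.47. For Elovl7 it was Atp6v0d2 (r = 0.978), a proton pump subunit of osteoclasts and macrophages spanning 6.42 to 9.77. For Elovl6 it was Ctage5 (r = 0.967), which spanned only 9.82 to 10.25, and for Elovl3 Lonrf2 (r = 0.955). For Scd1, Fads3, Elovl1 and Elovl5 the genes were Meis3 (r = 0.986), Ppp1r7 (r = 0.979), Cplane2 (r = 0.986) and Gbx2 (r = 0.984).

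Of 65 other genes in 6 lists around these enzymes, 54 were tested. With prednisolone, 0 of the 54 passed in limma, and 3 were higher and 1 lower at an unadjusted p under 0.05, against 3.37% and 2.33% of tested genes. The median difference was 0.04 over the 54 genes. The gene with the lowest p in its list was Degs1, which desaturates dihydroceramide, at 0.30 ± 0.17 among 6 tested other desaturases and elongases. For 9 elongation partners it was Hacd2, the dehydratase of the elongation cycle, at 0.25 ± 0.12. Among 7 genes of the cytochrome b5 chain, which supplies electrons to desaturases, it was the reductase Cyb5r3 at 0.21 ± 0.09. Among 10 acyl-CoA synthetases and acyltransferases it was Acsl4, which activates arachidonic acid, at -0.63 ± 0.27. Hsd17b4, of peroxisomal chain shortening, differed by 0.29 ± 0.12 as the lowest of 8, and the nuclear receptor Ppara by 0.21 ± 0.09 as the lowest of 14 regulators. Each of these 6 had a limma adjusted p of 0.768.

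Srebf1, which encodes the SREBP-1c activator of Scd1, Elovl6 and the Fads genes, is given for its role, chosen after its values were seen. It read 9.05, 9.10, 9.41 and 8.79 in GC+ mice 1 to 4, against 9.46, 9.32, 9.02 and 9.19 in GC- mice 1 to 4, and the groups overlapped. The difference was -0.16 ± 0.15 (limma adjusted p = 0.811) and the slope on Gpx5 0.002 ± 0.019.

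On Gpx5, 0 of the 54 pathway genes had a called slope, and 7 positive and 5 negative slopes had an unadjusted p under 0.05, against 8.07% and 8.4% of tested genes. On the mean of 17 epididymis markers, 2 of the 54 were called, both positive, against 2.14% of tested genes. These were named after their values were seen. Mboat1, a lysophospholipid acyltransferase, had a slope of 0.590 ± 0.050 (limma adjusted p = 0.00549), and Srebf2, the activator of cholesterol synthesis, 0.109 ± 0.020 (limma adjusted p = 0.0408). Mboat1 read 6.83, 8.95, 6.28 and 6.12 in GC+ mice 1 to 4, against 9.95, 6.32, 6.90 and 9.08 in GC- mice 1 to 4, so the 3 highest mice were those highest in Fads2.

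**Figure D4:**
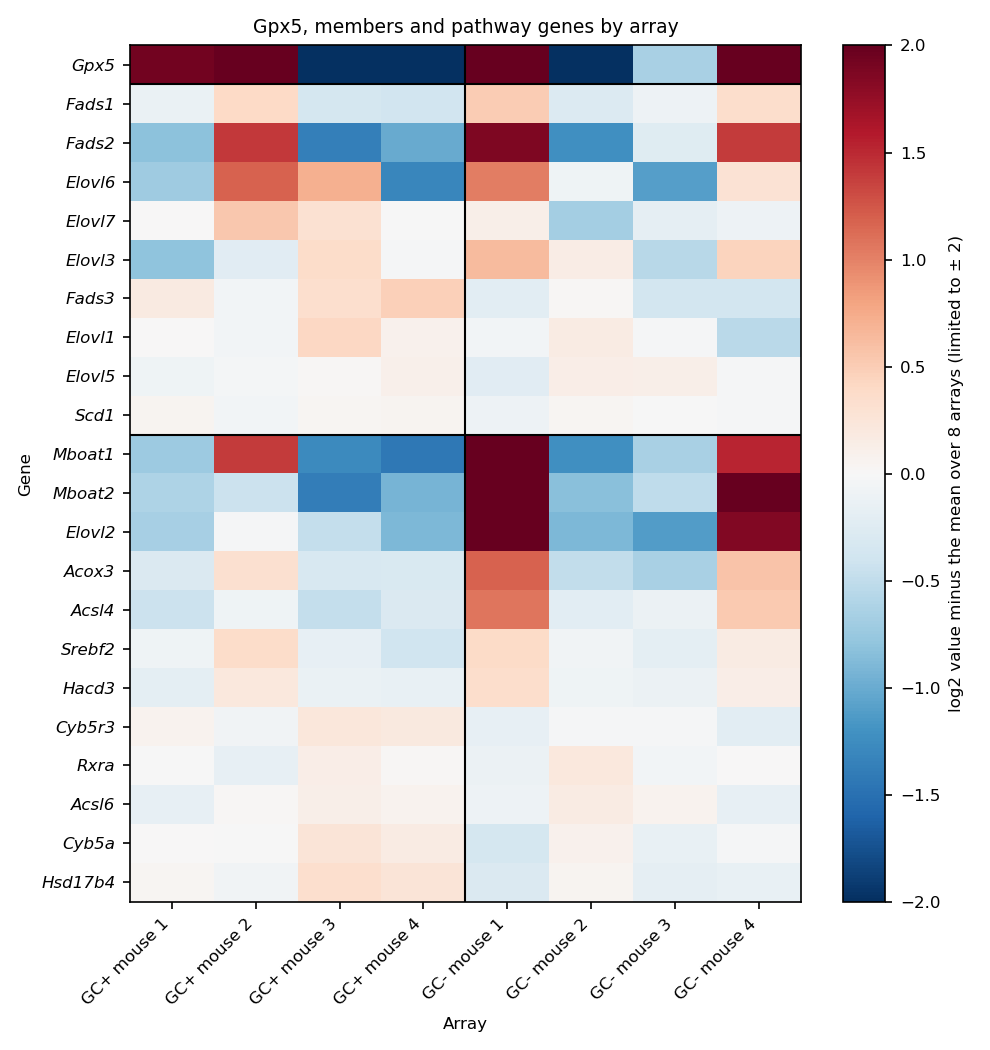
Log2 value minus its mean over the 8 arrays (colour, limited to ± 2) for Gpx5, the 9 members ordered by r with Gpx5, and the 12 pathway genes with an unadjusted p under 0.05 for the slope on Gpx5 (rows), by array (columns, GC+ left of the line). Fads2, Mboat1 and, more faintly, Fads1 are high in GC+ mouse 2 and GC- mice 1 and 4, and Scd1 and Elovl5 are nearly white throughout.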

How the data were processed

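RNA of 8 fat pads, 4 GC+ and 4 GC- mice by their labels, was measured from 100 ng on Affymetrix Mouse Gene 2.0 ST arrays. The deposited values are log2 values that the authors made by RMA in Affymetrix Expression Console, per the labels and the submitters' processing notes; Partek 6.6 is also named there, with no role. RMA makes array distributions equal and compresses very low and very high signals. No genome build or annotation version is named in those sources. The 41345 probe sets were named from GEO's platform annotation (23521 with 1 symbol, 1814 with several, 16010 with none), and 23328 were matched by Entrez identifier to RefSeq GRCm38.p6, which changed 0 symbols. The dimmest 33.3% of genes were left out.

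limma 3.58.1 under R 4.3.3 (lmFit, eBayes) gave the treatment difference and, with treatment in the model, the slope on Gpx5, with Benjamini-Hochberg adjustment over all tested genes at 0.05. Correlations used all 40320 pairings. Both fits were run on simulated data with independent noise in each gene. Such data lack variation shared between genes, so they cannot decide the error rates here. Motif matches were counted in RefSeq promoter windows. Figures used matplotlib 3.10.9. The members, lists and alternatives were chosen with earlier results of these data known. Named were all members, the gene most alike to each, and the lowest p per pathway list, leaving out predicted genes, receptors of smell and small RNAs. The labels call the replicates biological.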

Additional observations from a re-analysis of the deposited data

How the results depend on the processing

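No member and no gene was called between GC+ and GC- in any of 18 alternatives, which changed the filter on dim genes, normalization, probe set choice, variance model, array weights, covariate and samples and left out each mouse. Of 315 recomputed differences and slopes of single members, 296 kept direction and call, 12 changed sign and 7 became called. The sign changes were Elovl5 at 0.03 under repeated quantile normalization and under median centring, -0.08 to 0.04 without 1 mouse, and Elovl6 at 0.09 with Gpx5 as a covariate, 0.16 without the 3 arrays of highest Gpx5, and -0.47 to 0.36 without 1 mouse. For the slope on Gpx5, calls numbered 187 with array weights, 3 without a treatment term, 354 on the mean of 17 epididymis markers and 23 on Gpx5 ranks, an alternative chosen after seeing the data, against 0 as reported, and 0 to 81 without 1 mouse; without GC+ mouse 1 there were 81. Members among them numbered 2 with array weights, 2 on the marker mean and 1 on ranks (Fads2, limma adjusted p = 0.0357), and 0 to 2 without 1 mouse; the cause was not tested. On the marker mean, 56 to 282 genes were called without 1 mouse, 56 of them without GC- mouse 1 and 56 without GC- mouse 2. The replicate block gave 0 calls in both fits (Fads2 slope 0.286 ± 0.063, limma adjusted p = 0.768), as did the fits without it. Same-numbered mice correlated at -0.20, -0.57, 0.13 and -0.27 in their deviations from the group means. With 4 mice a group and unequal epididymal RNA, these values cannot decide whether the numbers pair the mice. 4 arrays per group limit the precision of the treatment differences, most for Fads2 (standard error 0.82) and Elovl6 (0.63) among the tested members. Signal near the ends of the range can hide variation in Scd1, Elovl3 and Elovl7.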

Other observations

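Other elongases and acyltransferases, named here after their values were seen and not tested as a group, were high in some of the arrays rich in epididymal RNA and not in others. Elovl2, an elongase of long polyunsaturated acids, read 6.66, 7.30, 6.84 and 6.43 in GC+ mice 1 to 4, against 9.54, 6.43, 6.21 and 9.18 in GC- mice 1 to 4. Mboat2, a lysophospholipid acyltransferase, was likewise high in GC- mice 1 and 4, at 9.53 and 8.93, and read 6.46 in GC+ mouse 2. The epididymal transcripts Spint4 and Rnase9 were also highest in GC- mice 1 and 4, at 12.31 and 12.12 for Spint4 and 13.24 and 12.89 for Rnase9. Their next highest values were 8.56 for Spint4 in GC+ mouse 1 and 8.84 for Rnase9 in GC+ mouse 2. In GC+ mice 1 and 2, Elovl2 read only 6.66 and 7.30, and Mboat2 6.26 and 6.46. Elovl4, an elongase of very long chains known from retina, skin and testis, read 8.67 in GC+ mouse 2 and at most 5.67 in the other GC+ mice, against 5.29 to 6.05 in GC- mice. The epididymal lipocalins Lcn8 and Lcn9 were highest in that mouse, at 13.50 and 13.61. They also read 9.26 and 9.99 in GC+ mouse 1, and 9.51 and 10.12 in GC- mouse 1. Elovl4 read only 5.58 and 6.05 in those 2 mice. Adam7, another epididymis marker, read 13.21 in GC+ mouse 2, against 13.57 and 13.21 in GC- mice 1 and 4. The epididymal genes set beside these enzymes were also picked after their values were seen, and no match was tested. Fads2 read 10.80 in GC+ mouse 2, against 11.25 and 10.78 in GC- mice 1 and 4, so it was high in all 3 of these arrays.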
